A study of Mus musculus with 2 samples.

Results

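Casein kinase 1 is a family of serine/threonine kinases encoded in the mouse by 6 genes, *Csnk1a1*, *Csnk1d*, *Csnk1e*, *Csnk1g1*, *Csnk1g2* and *Csnk1g3*, and *Csnk1g3* is also the host gene of circCsnk1g3, the circular RNA (circRNA) silenced here. The 6 genes were taken by symbol from the 25509 genes of the count table, which held 1 row for each. All 6 were among the 12941 genes with at least 10 counts in a library, which are called the tested genes below. The data consisted of 2 mRNA libraries of mouse soft-tissue sarcoma cells, 1 from cells transduced with the control hairpin (shCTR) and 1 from cells transduced with a hairpin against circCsnk1g3 (shcircCsnk1g3). Both cultures shared the same C57BL/6 background, the loss of p53, the retroviral overexpression of *Ccne1* and an origin from sarcoma foci in the lung. The hairpins were delivered with a lentivirus, followed by puromycin selection. With 1 library per condition there was no replicate spread, no test between the conditions could be made, and each comparison below is a comparison of 2 libraries.

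Casein kinase 1 enzymes act without a dedicated activating subunit and usually phosphorylate sites that another kinase has primed. The alpha isoform primes β-catenin for destruction, the delta and epsilon isoforms phosphorylate the PER proteins of the circadian clock and the Dishevelled adaptors of Wnt signaling, and the gamma isoforms, which are anchored in the membrane through a lipid, phosphorylate the Wnt co-receptor LRP6. In mesenchymal cells these kinases therefore sit on the Wnt, Hedgehog and clock pathways.

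The libraries held 42709996 counts (shCTR) and 38792143 counts (shcircCsnk1g3), and levels are given as TMM-scaled CPM, counts scaled to the library total and corrected for library composition. Among the mesenchymal markers, *Pdgfra* (327 and 264 CPM in shCTR and shcircCsnk1g3) and *Ly6a* (76.3 and 47.3 CPM) were present in both libraries, while *Thy1* had 1 count in shCTR and 0 in shcircCsnk1g3. The 6 leukocyte markers together had 2 counts in shCTR and 1 in shcircCsnk1g3, the 5 lung epithelial markers had none, and the 4 endothelial markers had 24 and 17 counts. The ranges that follow log2 fold changes are 95% exact (Clopper-Pearson) intervals of the ratio of counts. They cover counting error only, since reads without molecular identifiers are not independent molecules, and take no account of differences between cultures.

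The kinases resemble each other in sequence, and the closest pair and a pair of gamma isoforms are shown first because the authors' counting step shares out reads that match several genes. Among all annotated transcripts of the 6 genes, no 100-base window of one occurred in another. Windows shorter than 100 bases were not compared. For the closest windows, only the longest coding transcript of each gene was used. On these transcripts *Csnk1d* and *Csnk1e* were the closest pair, with 90 of 100 bases the same in their best ungapped window. That window, which includes the codons of the catalytic loop of the kinase, lies wholly in coding exon sequence of both genes, in exon 4 of 9 of a *Csnk1d* transcript (chr11:120973068-120973167, minus strand, GRCm38) and in exon 5 of 9 of a *Csnk1e* transcript (chr15:79426361-79426460, minus strand). The *Csnk1g1* and *Csnk1g2* windows, from the membrane-bound gamma isoforms, shared 81 of 100 bases, fewer than the 88 shared by *Csnk1g1* and *Csnk1g3*, and also lie in coding sequence, in exon 6 of 14 (chr9:65999404-65999503, plus strand) and exon 4 of 11 (chr10:80638167-80638266, plus strand). The sequences are those of GENCODE M21 transcripts, 5′ to 3′, and capitals mark the bases that differ within each pair.
Csnk1d: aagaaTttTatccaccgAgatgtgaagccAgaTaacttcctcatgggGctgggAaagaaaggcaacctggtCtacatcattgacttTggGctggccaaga
Csnk1e: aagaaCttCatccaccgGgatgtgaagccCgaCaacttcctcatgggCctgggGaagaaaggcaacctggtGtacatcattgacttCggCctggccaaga
Csnk1g1: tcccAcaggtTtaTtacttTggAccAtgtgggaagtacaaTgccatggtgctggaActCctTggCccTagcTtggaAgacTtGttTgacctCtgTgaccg
Csnk1g2: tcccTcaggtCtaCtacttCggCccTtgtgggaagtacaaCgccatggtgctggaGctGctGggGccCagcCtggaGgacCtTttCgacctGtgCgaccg
The differing bases are spread along each window, so that a read covering the whole of it carries 10 of them between *Csnk1d* and *Csnk1e* and 19 between *Csnk1g1* and *Csnk1g2*. Over the 15 pairs of genes, the best window ranged from 69 shared bases (*Csnk1e* and *Csnk1g3*) to the 90 of *Csnk1d* and *Csnk1e*.

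Outside the family, windows of *Csnk1g3* alone were found in another annotated gene, with 248 of its 4441 windows (5.58%) also present in *Gm14584*. *Gm14584* was not among the genes of the count table. *Csnk1d* and *Csnk1e* each overlap an annotated antisense gene on the opposite strand, *Gm28192* with 63 shared exon bases and *Gm16059* with 267, and neither was in the count table. The library kit kept the strand, but whether the counting used it was not stated.

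In the linear *Csnk1g3* transcript, 13 exons make up 4249 bases, of which 1272 are coding. The targets of all 3 hairpin designs against circCsnk1g3 joined the end of exon 4 to the start of exon 2, and exons 2 to 4 together measure 535 bases, 12.6% of the linear transcript. Of these bases, 289 are coding (22.7% of the coding sequence) and 246 lie before the start codon, as the map of the transcript shows. No design had a full match in an annotated transcript of the 6 genes. In linear *Csnk1g3* the best ungapped match covered 14 of 21 bases for design 1, 16 of 20 for design 2 and 18 of 21 for design 3, and in the other 5 genes it covered at most 14 bases for every design. The cells were sequenced with the hairpin that the study used first, and its additional designs were tested separately by RTqPCR. The sources used here do not say in words which of the numbered designs came first.

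**Figure D1:**
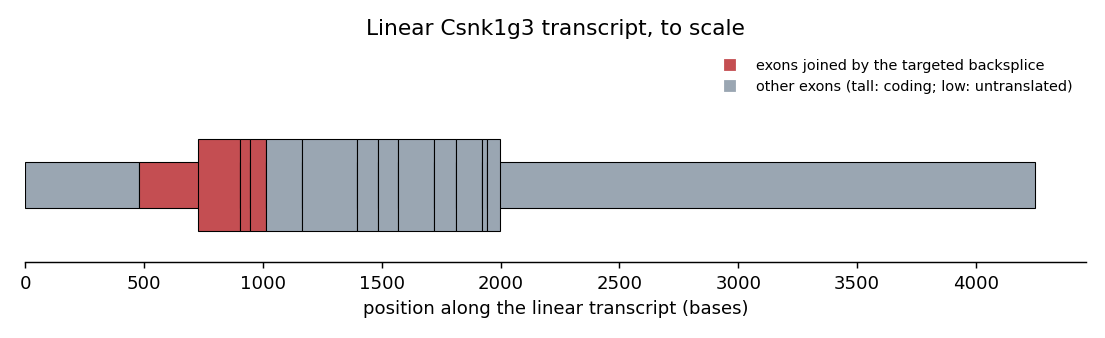
Linear *Csnk1g3* transcript drawn to scale, with the position in bases on the horizontal axis, coding parts tall and untranslated parts low. Exons 2 to 4 (red), which the targeted backsplice joins, take up 535 of the 4249 bases, and the rest of the transcript (gray) lies outside the circle.

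The first question was whether the linear host transcript differed between the libraries. *Csnk1g3* (ENSMUSG00000073563.2, chromosome 18, 53862122 to 53955548, plus strand) had 2411 counts (57.1 CPM) in shCTR and 2159 counts (55.1 CPM) in shcircCsnk1g3, a log2 fold change of -0.05 (-0.14 to 0.03). This was a change of -3.52%, with an interval from -9.01% to 2.29%. On the TMM scale *Csnk1g3* thus did not differ beyond counting error at this depth, and a larger loss of the linear transcript than -9.01% lies outside the counting interval. In bulk RNA, fewer cells with a transcript and less of it per cell cannot be told apart, here and for the genes below. Relative to *Tbp*, the general transcription factor that served as a reference in the RTqPCR of the study, the log2 change of *Csnk1g3* was 0.03 (-0.11 to 0.16), on the other side of 0. Relative to *Actb* it was 0.28 (0.19 to 0.36), wholly above 0, so that the result depends on the reference. Scaling to *Actb* shifts every gene by the same amount and puts the median of all tested genes at 0.33. Because the libraries were made from polyadenylated RNA, which leaves circles out, the level of circCsnk1g3 itself was not measured.

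The alpha isoform differed most on the TMM scale. *Csnk1a1*, the gene of the kinase that primes β-catenin (ENSMUSG00000024576.14, chromosome 18, 61555274 to 61590061), had 11777 counts (279 CPM) in shCTR and 8925 counts (228 CPM) in shcircCsnk1g3, a log2 fold change of -0.29 (-0.33 to -0.25) and a change of -18.3%. It was the family member with the most counts in both libraries. Of all tested genes, 14.5% had a lower log2 fold change than *Csnk1a1*.

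The clock kinases were lower by smaller amounts on the TMM scale, though not when measured against *Actb*. *Csnk1d* (ENSMUSG00000025162.17, chromosome 11, 120961749 to 120991330, minus strand) had 8475 counts (201 CPM) in shCTR and 7161 (183 CPM) in shcircCsnk1g3, a log2 fold change of -0.14 (-0.18 to -0.09). *Csnk1e* (ENSMUSG00000022433.18, chromosome 15, 79417856 to 79455566, minus strand) had 7006 counts (166 CPM) and 6053 (154 CPM), a log2 fold change of -0.10 (-0.15 to -0.05). Both intervals lay below 0. The changes were -8.96% for *Csnk1d* and -6.91% for *Csnk1e*, and the change of *Csnk1d* relative to *Csnk1e*, -0.03 (-0.10 to 0.04), did not differ beyond counting error.

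The gamma isoforms went different ways on the TMM scale. *Csnk1g2*, whose product has also been reported to bind the necroptosis kinase RIPK3 (ENSMUSG00000003345.15, chromosome 10, 80622838 to 80640749, plus strand), had 7117 counts (168 CPM) in shCTR and 5820 (148 CPM) in shcircCsnk1g3, a log2 fold change of -0.18 (-0.23 to -0.13). *Csnk1g1* (ENSMUSG00000032384.15, chromosome 9, 65908924 to 66045015, plus strand) had 1686 counts (39.9 CPM) and 1667 (42.5 CPM), a log2 fold change of 0.09 (-0.01 to 0.19). On this scale it was the only member with the higher value in the silenced cells, and its interval included 0. Summed over the 3 gamma genes, the level was 265 CPM in shCTR and 246 CPM in shcircCsnk1g3, a log2 fold change of -0.11 (-0.15 to -0.07), of which *Csnk1g2* carried the larger part of the counts.

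**Figure D2:**
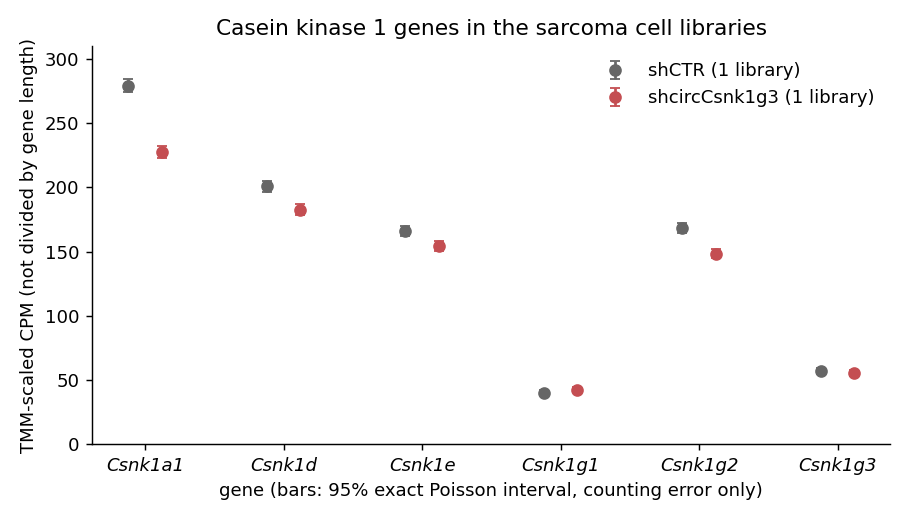
TMM-scaled CPM of the 6 casein kinase 1 genes in the shCTR library (gray) and the shcircCsnk1g3 library (red), with 95% exact Poisson intervals. *Csnk1a1* shows the widest gap (279 and 228 CPM), and the intervals of *Csnk1g3* (57.1 and 55.1 CPM) and *Csnk1g1* (39.9 and 42.5 CPM) overlap.

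No member was 2-fold or 1.5-fold apart between the libraries. Of the tested genes, 2.13% were at least 2-fold higher and 2.55% at least 2-fold lower in shcircCsnk1g3, and 5.39% and 6.31% passed 1.5-fold in the same directions. The counting interval lay below 0 for 4 of the 6 members (*Csnk1a1*, *Csnk1d*, *Csnk1e* and *Csnk1g2*) and above 0 for 0 of them. At this depth such intervals are common: they lay below 0 for 28.2% and above 0 for 26.9% of all tested genes. Among the 5237 genes with at least as many counts as *Csnk1g1*, the member with the fewest, they lay below 0 for 38.1% and above 0 for 31.5%. In these 5237 genes the median log2 fold change was -0.01, and the values from the 5th to the 95th percentile ran from -0.34 to 0.28, a range that held all 6 members. Of the same genes, 382 (7.29%) had a lower value than *Csnk1a1* and 2148 (41.0%) had a lower value than *Csnk1g3*.

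**Figure D3:**
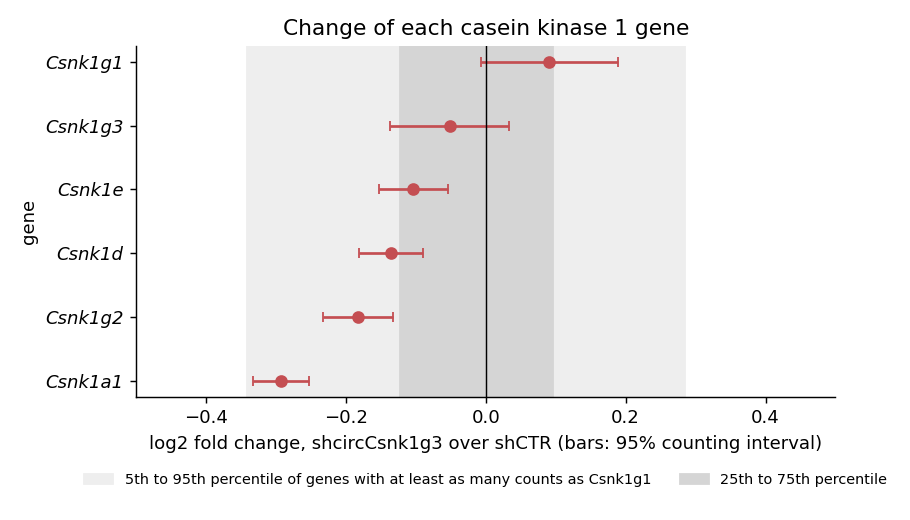
Log2 fold change (shcircCsnk1g3 over shCTR) of each member with its 95% counting interval, over the 5th to 95th and 25th to 75th percentiles of the 5237 genes with at least as many counts as *Csnk1g1* (gray bands). *Csnk1a1* (-0.29), *Csnk1g2* (-0.18) and *Csnk1d* (-0.14) lie left of the inner band, and all 6 lie inside the outer band. The values are relative to the TMM scaling, and measured against *Actb* all 6 lie above 0.

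Relative to the TMM scaling, 5 of the 6 genes had the lower value in the silenced cells and *Csnk1g1* the higher, while measured against *Actb* all 6 had the higher value. The 6 genes summed to 38472 counts (911 CPM) in shCTR and 31785 counts (811 CPM) in shcircCsnk1g3, a log2 fold change of -0.17 (-0.19 to -0.15), and *Csnk1a1*, at 279 and 228 CPM, made up the largest part of the difference. Without *Csnk1g3* the sum changed by -0.18 (-0.20 to -0.15). The median of the 6 log2 fold changes was -0.12, against 0.00 for all tested genes. Measured against *Tbp*, the interval lay below 0 for 1 member only (*Csnk1a1*, -0.21, -0.32 to -0.10) and above 0 for 1 (*Csnk1g1*, 0.17, 0.03 to 0.32). *Tbp* had 1591 counts in shCTR and 1396 in shcircCsnk1g3, a log2 fold change of -0.08 (-0.19 to 0.02), and *Actb*, whose human counterpart was the other RTqPCR reference, was lower by more (-0.33, -0.34 to -0.32). Measured against *Actb*, the interval lay above 0 for 5 members, *Csnk1g3* among them, and included 0 for *Csnk1a1* (0.03, -0.01 to 0.08). That scaling shifts the median of all tested genes to 0.33.

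Ratios between members do not depend on scaling. Over the 15 pairs, the interval of the relative change lay off 0 for 11. The pairs reuse the same 6 genes and are not independent, and no share was computed for pairs of other genes. Intervals off 0 are common at this depth. On the TMM scale they lay below 0 for 38.1% and above 0 for 31.5% of the 5237 deeper genes. *Csnk1a1* was lower relative to each of the other 5 genes, from -0.11 (-0.17 to -0.05) against *Csnk1g2* to -0.38 (-0.49 to -0.28) against *Csnk1g1*. *Csnk1g1* was higher relative to each of the other 5, by 0.14 (0.01 to 0.27) against *Csnk1g3* and by 0.27 (0.16 to 0.38) against *Csnk1g2*. *Csnk1g3* differed beyond counting error from *Csnk1a1*, *Csnk1g1* and *Csnk1g2*, while for *Csnk1d* (-0.08 for *Csnk1d* over *Csnk1g3*, -0.18 to 0.01) and *Csnk1e* (-0.05, -0.15 to 0.05) the interval included 0.

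Per base of merged exons, *Csnk1d* had the highest level of the family in shCTR (39.95 RPKM, the CPM per kilobase), followed by *Csnk1g2* (34.8), *Csnk1a1* (26.5), *Csnk1e* (25.2), *Csnk1g3* (13.1) and *Csnk1g1* (2.56). The order was *Csnk1d*, *Csnk1g2*, *Csnk1e*, *Csnk1a1*, *Csnk1g3* and *Csnk1g1* in shcircCsnk1g3, where *Csnk1e* had 23.4 RPKM and *Csnk1a1* 21.7. *Csnk1g3* thus made up 9.23% of the summed family level in shCTR and 9.93% in shcircCsnk1g3. The upper part of this order depends on the length used: per base of the longest transcript, *Csnk1a1* came first with 68.3 RPKM in shCTR and 55.8 in shcircCsnk1g3, and *Csnk1g3* made up 5.72% and 6.21%. In raw counts, the share of *Csnk1a1* was 30.6% (30.2 to 31.1) of the family in shCTR and 28.1% (27.6 to 28.6) in shcircCsnk1g3, and that of *Csnk1g3* was 6.27% (6.03 to 6.51) and 6.79% (6.52 to 7.07), with exact binomial intervals.

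**Figure D4:**
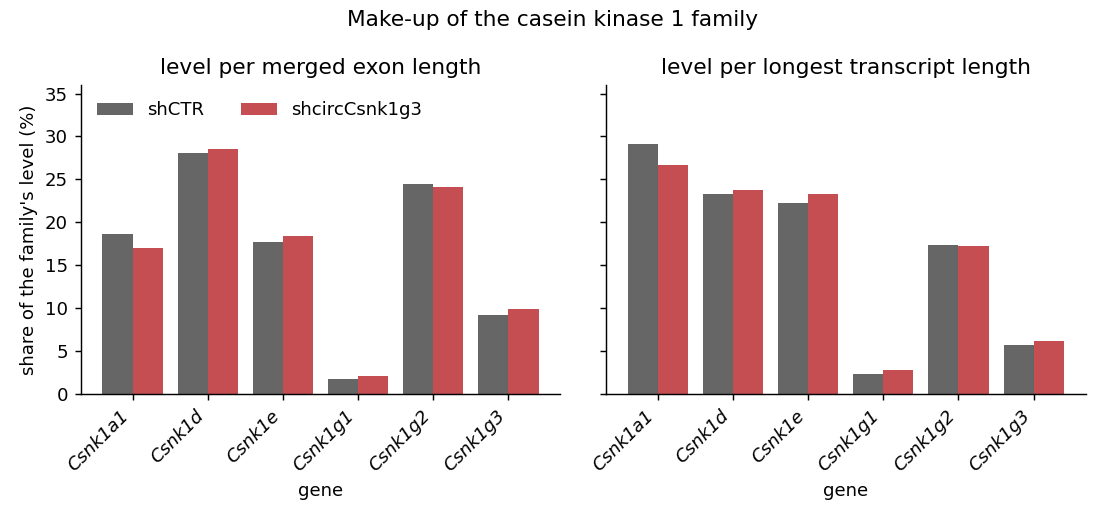
Share (%) of each gene in the summed level of the 6 casein kinase 1 genes, per base of merged exons (left) and per base of the longest transcript (right), in shCTR (gray) and shcircCsnk1g3 (red). *Csnk1g1* and *Csnk1g3* are the lowest by both lengths, whereas *Csnk1a1* lies in the middle on the left and is highest on the right.

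The nearest tested genes on either side of *Csnk1g3* were given as a check of its surroundings. *Cep120*, 118 kb before it, had a log2 fold change of 0.13 (0.04 to 0.23) and *Ppic*, 444 kb before it, of -0.22 (-0.28 to -0.15). On the other side, *Zfp608*, 932.5 kb away, had 0.15 (-0.00 to 0.30) and *Gramd3*, 2445 kb away, 0.20 (-0.01 to 0.40). The interval thus lay above 0 for *Cep120*, below 0 for *Ppic* and included 0 for *Zfp608* and *Gramd3*, which lie too far off to describe the locus closely. The 5 tested genes closest to *Csnk1g3* in log2 CPM over both libraries were *Npc1*, *Shmt1*, *Cdc6*, *Mina* and *Ticrr*, all within a distance of 0.02. With 2 libraries this says only that they had a like level and a like ratio.

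Of the 8 FAM83 proteins, which tether casein kinase 1 isoforms to places in the cell, 3 were tested. *Fam83d*, the scaffold that brings the alpha isoform to the mitotic spindle, had 1375 counts in shCTR and 910 in shcircCsnk1g3, a log2 fold change of -0.49 (-0.61 to -0.37), and it was the only one of the 3 with at least 200 summed counts. The other 2, *Fam83c* and *Fam83h*, had fewer than 50 counts in each library and intervals that included 0. Summed over the 8 genes, the level was 34.3 CPM in shCTR and 25.4 CPM in shcircCsnk1g3.

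Genes of the Wnt receptor and of the complex that destroys β-catenin, where casein kinase 1 acts, had a median of -0.05, which turned to 0.03 with scaling to *Tbp*. Of 18 tested, 5 were higher and 13 lower, with intervals above 0 for 3 and below 0 for 8, beside 26.9% above and 28.2% below among all tested genes and 31.5% and 38.1% among the 5237 deeper ones. *Lrp5*, a Wnt co-receptor, had 3225 counts in shCTR and 1919 in shcircCsnk1g3, a log2 fold change of -0.64 (-0.72 to -0.56), and was the only gene of this list past 1.5-fold. The highest was *Dvl2*, a Dishevelled adaptor, with 2352 and 2661 counts (0.29, 0.21 to 0.37). The relative of *Lrp5*, *Lrp6*, a target of the gamma isoforms, changed by -0.15 (-0.21 to -0.09). *Ctnnb1*, which encodes β-catenin, had 30880 and 23768 counts (-0.27, -0.29 to -0.25).

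The circadian clock genes were higher more often than lower. Of 18 tested, 13 had the higher value in shcircCsnk1g3 and 5 the lower, the median was 0.15, and intervals lay above 0 for 11 and below 0 for 2, where 26.9% of all tested genes (31.5% of the deeper ones) lay above 0 and 28.2% (38.1%) below. Among the *Per* genes, whose proteins are the clock substrates of the delta and epsilon isoforms, *Per3* had 483 counts in shCTR and 584 in shcircCsnk1g3 (0.38, 0.21 to 0.56). *Per1* had 836 and 871 counts (0.17, 0.03 to 0.31), and for *Per2*, with 173 and 151 counts, a difference was not detectable (-0.09, -0.41 to 0.23). *Nfil3*, a repressor of clock output genes, had 1960 and 2780 counts, a log2 fold change of 0.61 (0.53 to 0.70). *Npas2*, which passed 2-fold and was named after its value was seen, had 8 and 18 counts (1.09, 0.00 to 2.69). The hour at which the cultures were collected is not stated, and its part in these values was not tested.

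In the Hedgehog pathway, casein kinase 1 phosphorylates the transducer SMO and the GLI factors. On the TMM scale most tested genes of this pathway were lower, to an extent that depended on the low-count genes. Of 9 tested genes, 8 had the lower value in shcircCsnk1g3 and 1 the higher, the median was -0.27, and intervals lay below 0 for 6 and above 0 for 1, against shares of 28.2% and 26.9% of all tested genes, or 38.1% and 31.5% of the deeper ones. The median was -0.11 with at least 200 summed counts, which leaves out *Gli1* and *Boc*. It was -0.39 without a filter and -0.19 with scaling to *Tbp*. The gene lists were not scaled to *Actb*, whose own change (-0.33) was larger in size than the -0.27, so the direction depends on the reference. *Gas1*, a co-receptor of Hedgehog ligands, had 5316 counts in shCTR and 2881 in shcircCsnk1g3, a log2 fold change of -0.78 (-0.84 to -0.71). *Gli2*, a transcription factor of the pathway, had 425 and 256 counts (-0.62, -0.85 to -0.40). *Gli1*, a factor and target of the pathway, was named after its value was seen as the only gene past 2-fold, with 106 and 36 counts (-1.40, -2.04 to -0.89). *Boc*, a further co-receptor named in the same way as past 1.5-fold, had 88 and 46 counts (-0.80, -1.38 to -0.30). *Smo* itself differed less (-0.11, -0.17 to -0.06).

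*Csnk1g3* was then compared with the other host genes of circRNAs that the study followed in sarcoma. Of the 12 host genes, 5 lay above and 7 below 0, and the median was -0.06, or 0.018 with scaling to *Tbp*. Their intervals lay above 0 for 4, below 0 for 5 and included 0 for 3, beside 26.9% above and 28.2% below among all tested genes. *Ankib1*, the host of circAnkib1, had 2314 counts in shCTR and 1531 in shcircCsnk1g3, a log2 fold change of -0.49 (-0.58 to -0.39), and was the lowest of the 12 although its circRNA was not the one targeted. *Bnc2*, the host of circBnc2, had 1050 and 1074 counts (0.14, 0.02 to 0.26), and *Rere* was highest (0.18, 0.14 to 0.23). The value of *Csnk1g3* lay between them.

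**Figure D5:**
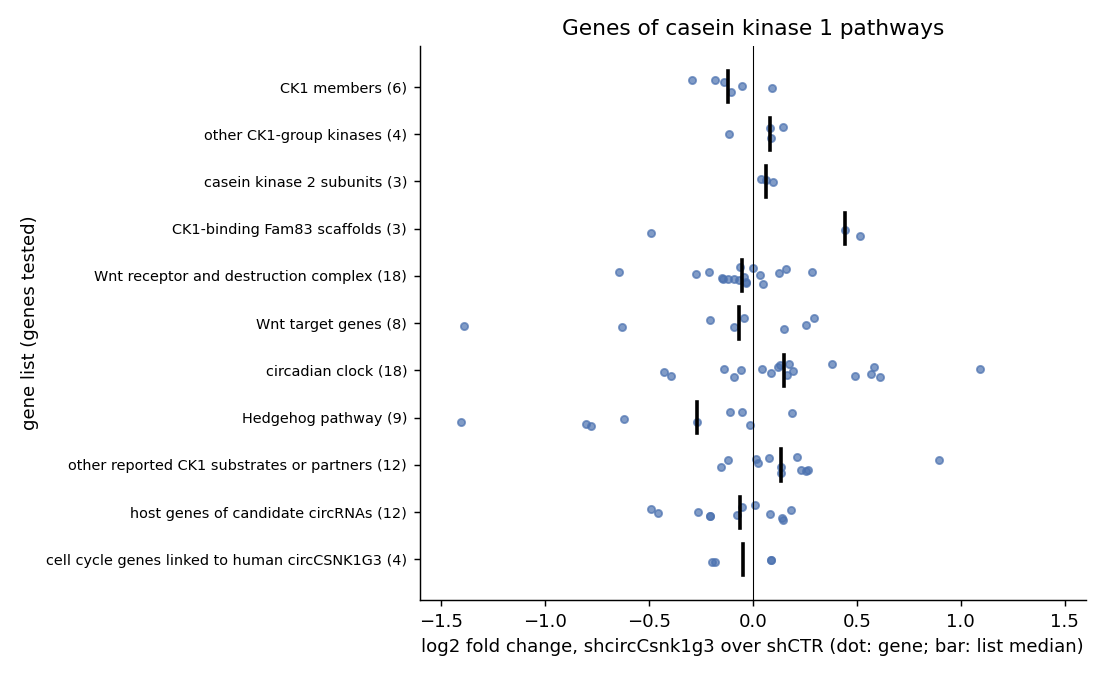
Log2 fold change (shcircCsnk1g3 over shCTR, horizontal axis) of each tested gene of 11 lists, with 1 dot per gene and a black bar at the list median. The lowest and highest medians, -0.27 (Hedgehog pathway) and 0.44 (the 3 tested FAM83 scaffolds), rest in part on low-count genes, since the former is -0.11 with at least 200 summed counts and the latter is the value of *Fam83c*, whose interval included 0, and the 6 casein kinase 1 genes lie between -0.29 and 0.09.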

How the data were processed

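RNA was extracted with TRIzol, poly(A) libraries were made with the TruSeq Stranded mRNA kit, and STAR (alignment to GRCm38) and RSEM (gene counts) were used by the authors. The deposited table holds these estimated counts as whole numbers, with 92 spike-in rows, all at 0, that were left out. A further deposited table gives TMM-scaled CPM, a normalized signal per gene, for 11624 genes including all 6 members, and served as an alternative.

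TMM factors were computed with edgeR 4.0.16 (R 4.3.3) over the 12941 tested genes. Log2 fold changes used a prior count of 2. Intervals were computed with scipy 1.17.1. The steps were tested on simulated Poisson counts, the same counting model as the intervals. That test therefore checks the computation only and does not bear on differences between cultures. Exon lengths, exons and sequences came from GENCODE M21 (GRCm38). The release used for counting is not given in the sources used here, and the identifiers of 4 of the 6 members have another version number in M21.

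The members and gene lists were chosen with earlier results of these data known, so no list result is independent support. In each list, the genes named are those past 1.5-fold with at least 200 summed counts. Where fewer than 2 passed, the highest and lowest with at least 200 were named. The 6 members, *Ankib1*, *Bnc2*, *Tbp*, *Actb*, *Per1*, *Per2*, *Per3*, *Ctnnb1*, *Lrp6* and *Smo* were always named, as were the 2 nearest tested genes on each side of *Csnk1g3* and the 5 nearest in level. A gene that this rule names is not reported here. Alternatives were DESeq2 1.42.0 size factors, total counts, scaling to *Tbp* or, for the members, *Actb*, prior counts of 0.5 and 10, no filter, minimums of 50 and 200 summed counts, a 1.5-fold threshold, the deposited signal table, and other lengths.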

Additional observations from a re-analysis of the deposited data

How the results depend on the processing

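No paired analysis was possible because each condition held a single library, which also leaves no library to omit. Of 60 values of the 6 casein kinase 1 genes under the alternatives, 50 stayed within their counting intervals, and the others came with scaling to a single gene. A change of filter leaves the value of a member as it was, and the prior counts could hardly move genes with this many counts. The values under those settings were therefore bound to stay. With scaling to *Actb*, chosen after seeing the data, all 6 lay above 0, with *Csnk1a1* at 0.035, *Csnk1d* at 0.19, *Csnk1e* at 0.22, *Csnk1g1* at 0.42, *Csnk1g2* at 0.14 and *Csnk1g3* at 0.28, and the median of all tested genes was 0.33. With scaling to *Tbp*, *Csnk1a1* was at -0.21, *Csnk1d* at -0.054, *Csnk1e* at -0.022 and *Csnk1g2* at -0.10, still below 0. *Csnk1g3* was at 0.03. Scaling to *Tbp* shifts every gene by the same amount and put the median of all tested genes at 0.08. In that setting the median was 0.17 for the other kinases of the group, 0.14 for the casein kinase 2 subunits, 0.53 for the FAM83 scaffolds, and 0.0072, with the sign reversed, for the 4 engineered and reference genes. The medians of the Wnt receptor, Wnt target, host gene and cell cycle lists, all close to 0, also changed sign there. The numbers of genes at least 2-fold higher and lower, 275 and 330, became 150 and 171 with a prior count of 10, 732 and 623 without a filter, 132 and 157 with at least 50 summed counts, 60 and 79 with at least 200, 107 and 168 in the deposited table, and 698 and 817 at 1.5-fold. The filters and the deposited table change how many genes are tested, and a larger prior count shrinks low-count genes. Over all these alternatives the 6 members lay between -0.29 and 0.42, short of 1.5-fold.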

Other observations

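Kinases related by name or by sequence had medians slightly above 0. The casein kinase 2 subunits, which belong to a separate kinase family, were higher for 3 of 3 genes, with a median of 0.06. For 2 of them the interval lay above 0, as it did for 26.9% of all tested genes. *Csnk2a1*, a catalytic subunit, had 6463 counts in shCTR and 6167 in shcircCsnk1g3 (log2 fold change 0.04, 95% counting interval -0.01 to 0.09), and *Csnk2a2*, the other one, had 2854 and 2838 (0.10, 0.02 to 0.17). Of 5 other kinases of the casein kinase 1 group, 4 were tested and 3 were higher, with a median of 0.09, from *Ttbk2* (-0.11, -0.25 to 0.03) to *Vrk3* (0.15, 0.02 to 0.28).

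Of 14 Wnt target genes, 8 were tested, with 3 higher, 5 lower and a median of -0.07, which turned to 0.014 with scaling to *Tbp*. Here the intervals lay above 0 for 2 and below 0 for 3, beside 26.9% and 28.2% of all tested genes. The changes went both ways. *Notum*, a secreted Wnt inhibitor, had 402 and 241 counts in shCTR and shcircCsnk1g3 (-0.63, -0.87 to -0.40). *Ccnd1*, which encodes cyclin D1, had 45163 and 51473 counts (0.30, 0.28 to 0.31). *Apcdd1*, named after its value was seen as the only one past 2-fold, had 130 and 45 counts (-1.39, -1.95 to -0.92).

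Of 12 other reported substrates or partners, 10 lay above and 2 below 0, with a median of 0.14, where 6521 tested genes were higher and 6420 lower. The interval lay above 0 for 6, below 0 for 2 and included 0 for 4. Among all tested genes 26.9% lay above and 28.2% below, and among the deeper ones 31.5% and 38.1%. Values for the genes with at least 200 summed counts ran from -0.15 (*Yap1*, interval -0.21 to -0.10) to 0.26 (*Foxo1*, 0.10 to 0.43). YAP1 is a transcriptional co-activator that casein kinase 1 delta and epsilon mark for degradation. FOXO1 is a transcription factor restrained by insulin signaling. *Ripk3*, named after its value was seen as the only one past 1.5-fold, had 6 and 12 counts.

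Cell cycle genes that work on human circCSNK1G3 has linked to the circRNA went both ways. *Cdk1*, the kinase that drives mitotic entry, had 9297 counts in shCTR and 7527 in shcircCsnk1g3, a log2 fold change of -0.20 (-0.24 to -0.15). *Cdc25c*, a phosphatase that activates it, had 1009 and 996 counts (0.09, -0.04 to 0.22). Of the 4 genes in this list, 2 were higher and 2 lower. The interval lay below 0 for 2, above 0 for 1 and included 0 for 1, *Cdc25c*. Their median was -0.05, or 0.033 with scaling to *Tbp*.

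The engineered genes had close levels in both libraries. *Ccne1* had 963 counts (22.8 CPM) in shCTR and 893 (22.8 CPM) in shcircCsnk1g3. *Trp53*, named after its value was seen, had 4334 counts (103 CPM) and 3841 (98.0 CPM), a log2 fold change of -0.07, although the cells are labelled p53-deficient, and a count per gene does not show from which exons the reads came. Among the mesenchymal markers, *Ly6a*, the Sca-1 gene used to sort the parental cells, was lower in shcircCsnk1g3 (-0.69, -0.77 to -0.61) and *Col1a2*, a type I collagen chain, was higher (0.23, 0.22 to 0.25). Of the 8 tested, 7 were lower and 1 higher, with a median of -0.10. Counting intervals lay below 0 for 5 and above 0 for 1. The shares were 28.2% and 26.9% among all tested genes and 38.1% and 31.5% among the deeper ones.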
